A study of Saccharomyces cerevisiae and Saccharomyces kudriavzevii and Saccharomyces uvarum with 18 samples.

Results

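The genes encoding the proteins of the cytosolic ribosome were followed in 3 cryotolerant wine and wild yeasts fermenting at 28°C and at 12°C, each set against the commercial wine yeast S. cerevisiae Lalvin T73. Members were taken by name, as every ORF on the array whose standard S. cerevisiae symbol was RPL, RPS or RPP followed by a number and, where the gene is duplicated, the letter A or B. The rule matched 138 annotated genes, of which 136 had a line in the value table (RPL29 and RPL36B had none). One of these, RPP1, encodes a subunit of RNase P and RNase MRP and not a ribosomal protein, so it was kept apart. This left 135 ribosomal protein genes among the 6172 genes measured, 79 of the large subunit (the stalk proteins included) and 56 of the small subunit, in 77 protein families. Both the A and the B copy were measured for 58 families (116 genes), and 19 genes were the sole copy on the array.

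The tested strains were S. cerevisiae Fermol cryophile, S. uvarum CECT 12600 (listed by the study as S. bayanus var. uvarum) and S. kudriavzevii IFO 1802. Each strain at 28°C and at 12°C makes a group of 3 two-colour arrays (replicates A, B and C), which gives 6 groups and 18 arrays. On every array RNA of the tested strain was labelled with Cy3 and RNA of T73, from a Tempranillo must fermentation at that temperature, with Cy5, both from the beginning of stationary phase. The strain field of the labels reads 12600, 12601 and 12602 across the S. uvarum arrays, while all titles name 12600. The dyes were never swapped, so a bias between them enters every ratio. RNA of S. uvarum and S. kudriavzevii was hybridised to probes made from S. cerevisiae ORFs. Sequence divergence and RNA level thus cannot be told apart in a group's ratio to T73 in these 2 species. The study reports that most genes of both species hybridised on such arrays in DNA tests. All values below are log2 ratios of the tested strain over T73, so that 1 means 2-fold more signal in the tested strain.

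Cytosolic ribosomes translate the mRNAs of the nucleus, and their proteins are made from some of the most abundant transcripts of a growing yeast cell. Transcription of these genes is coordinated through Rap1, Ifh1 and Sfp1 downstream of the TOR and protein kinase A pathways, and it is known to drop when nutrients run out or under stress. Most of the proteins are encoded by a pair of paralogs left by an ancient duplication of the genome, and the products of a pair are identical or nearly so. Because the copies of a pair can share long stretches of sequence, cross-hybridisation between the A and B probes was not separated from expression, and every paralog value below carries that limit.

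The 135 genes yielded 2411 values over the 18 arrays, with 19 missing, and 121 genes were measured on every array. RPS28A had the fewest values, on 14 arrays. Whole arrays differed in spread, with a standard deviation over all genes between 0.630 and 1.99 log2 units, and their all-gene medians lay between −0.196 and 0.208. Replicate arrays of a group correlated over all genes with r between 0.0276 and 0.705 (median 0.408). Of the 81 pairs of a 28°C array with a 12°C array, 15 had r below −0.3, against 0 of the 54 pairs within a temperature. The direction of the ratio rests on the stated dyes. At 12°C, 24 of 24 values of 8 genes checked ran as the study describes them once the deposited sign was turned, against 0 as deposited. No gene was checked this way at 28°C, so the direction there rests on the dyes alone. The study lists a ribosome term for genes up-regulated at 28°C in Fermol cryophile and S. uvarum, which was not used as a check. Of the member values 7 lay below −5, of which 5 were RPL20B, 1 RPL38 and 1 RPL31B, whose −16.87 on the Fermol cryophile 12°C array C was the only one below −10.

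The members' median was above 0 on every 28°C array of Fermol cryophile and S. uvarum and below 0 on all 3 Fermol cryophile arrays at 12°C. In S. kudriavzevii at 28°C it was near 0 on array A, with 53.3% of members above 0, and below 0 on array B, with 43.7% above. In Fermol cryophile the median over the members was 2.15, 2.04 and 0.20 on the 28°C arrays A, B and C, against −0.62, −0.86 and −0.95 on the 12°C arrays. Every 28°C array of this strain was above 0 and every 12°C array below it, and array C at 28°C lay far under the other two. That array also had the narrowest spread over all genes, 0.630, against 1.33 on array A and 1.21 on array B, and the part of its spread in the members' values was not tested. In S. uvarum the members' median was 0.80, 1.10 and 1.90 at 28°C, against −0.19, 0.76 and 0.66 at 12°C, so all 28°C arrays stood above all 12°C arrays. S. kudriavzevii gave 0.06, −0.19 and 0.65 at 28°C, against −0.47, 0.41 and 0.89 at 12°C, and its temperatures overlapped.

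**Figure D1:**
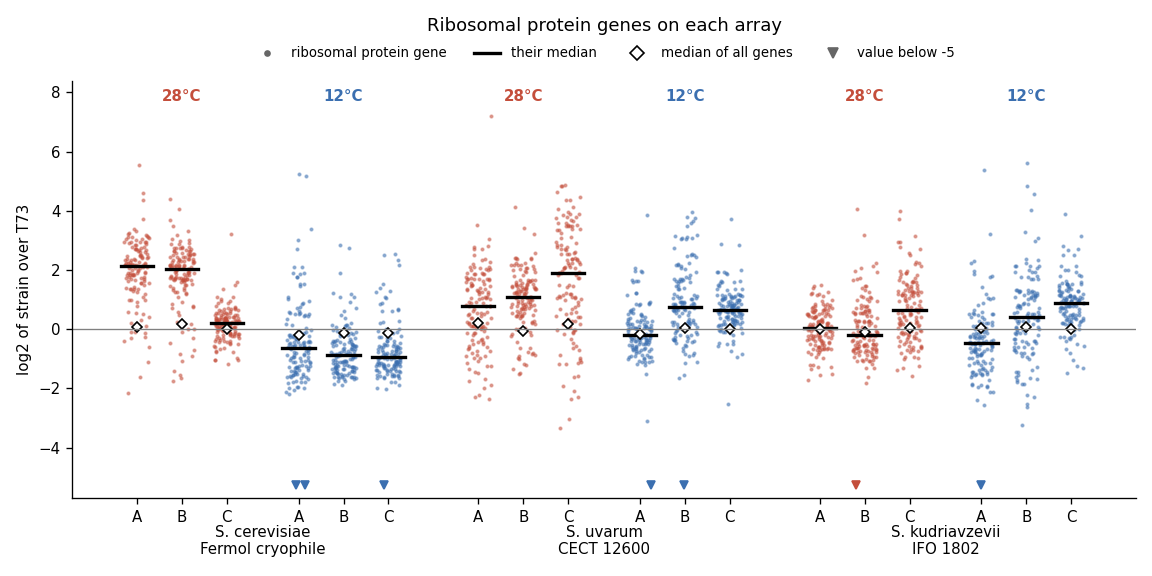
Log2 ratio of the tested strain over T73 (y axis) for the 135 ribosomal protein genes on each of the 18 arrays (x axis), 28°C in red and 12°C in blue, with a black bar at the members' median, an open diamond at the median of all genes and triangles for the 7 values below −5. The members' median is above 0 on 8 of 9 arrays at 28°C and on 4 of 9 at 12°C, and the Fermol cryophile arrays A and B at 28°C stand highest, at 2.15 and 2.04.

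As group means of these array medians, Fermol cryophile was at 1.46 ± 1.09 at 28°C and −0.81 ± 0.17 at 12°C (SD, n = 3 arrays each), which correspond to 2.75 and 0.571 times the T73 signal. S. uvarum was at 1.26 ± 0.57 at 28°C and 0.41 ± 0.52 at 12°C, and S. kudriavzevii at 0.17 ± 0.43 at 28°C and 0.28 ± 0.69 at 12°C. Taken relative to the median of all genes on the same array, the means were 1.38 ± 1.03 and −0.66 ± 0.21 for Fermol cryophile, 1.16 ± 0.57 and 0.45 ± 0.42 for S. uvarum, and 0.18 ± 0.37 and 0.23 ± 0.70 for S. kudriavzevii, with 28°C first in each pair. The members' median was above that of all genes on 12 arrays and below it on 6.

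Counted gene by gene with a group median of at least 2-fold, 110 of 135 members were higher in Fermol cryophile at 28°C (65 of 79 large and 45 of 56 small subunit genes), where 13.4% of all genes were, and 3 were lower (9.17% of all genes). At 12°C in this strain 9 were higher (15.5% of all genes) and 51 lower (14.9%), the 51 comprising 32 large and 19 small subunit genes. In S. uvarum at 28°C 75 were higher, 48 large and 27 small (19.3% of all genes), and 6 lower (14.9%), whereas at 12°C 21 were higher (13.3%) and 2 lower (14.5%). S. kudriavzevii had 14 higher (8.53%) and 5 lower (6.58%) at 28°C, and 26 higher (22.3%) and 11 lower (18.1%) at 12°C. The share of members thus stood well above the share of all genes in Fermol cryophile and S. uvarum at 28°C for higher values and in Fermol cryophile at 12°C for lower ones, and near or below it in S. kudriavzevii.

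Each group was then tested against T73 with limma, with Benjamini-Hochberg adjustment over all genes and a threshold of adjusted p below 0.05. T73 enters only as the second channel of each array, so its spread between cultures has no estimate of its own. In Fermol cryophile at 28°C 0 members were called (0.0163% of all genes were called higher and 0.0163% lower), although 87 of 135 had an unadjusted p below 0.05, all of them higher, as had 9.20% of all genes. The lowest adjusted p among them was 0.0924. This count of 0 depended on the processing: 44 members were called without array C at 28°C (median 2.10), 43 with arrays scaled to a common spread, 46 with quantile normalisation and 107 with array weights. RPL22B, one of the duplicated large subunit genes, had the highest mean, 2.92 (adjusted p = 0.150), from 4.37, 4.07 and 0.31, so array C again stood apart. RPS28B followed at 2.40, and the lowest means were −1.06 for RPS19A and −0.80 for RPL26B, none of them called.

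In Fermol cryophile at 12°C 3 members were called higher (5.61% of all genes) and 1 lower (2.51%). RPL15B, which encodes a large subunit protein deep in the rRNA core, gave 3.39, 2.73 and 2.33 (mean 2.82, adjusted p = 0.0411). RPL26B gave 5.17, 0.39 and 2.52 (mean 2.69, adjusted p = 0.0277) and RPL13B gave 2.12, 1.09 and 1.29 (mean 1.50, adjusted p = 0.0214). All 3 are B copies of large subunit genes, and each was above 0 on every array. The gene that fell was RPS1A, encoding a small subunit protein near the exit of the mRNA channel, at −1.98, −1.55 and −1.64 (mean −1.72, adjusted p = 0.0459). RPS1A was also lost when arrays were centred on their medians, which left the 3 higher calls, and with the replicate letter as a block. The count of 4 was 94 with array weights and 54 with this group compared alone. It also depended on single arrays: 0 remained without 12°C array A or C of this strain, and 1, RPL26B, without 12°C array B. The count was 2 without Fermol cryophile 28°C array A or without S. kudriavzevii 28°C array A or B, and 10 without S. uvarum 28°C array A, since all groups share 1 estimate of the spread.

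In S. uvarum at 28°C 35 members rose above T73 (20 large, 15 small subunit genes), or 25.9% of the 135 against 7.99% of all genes, and 2 fell (1 of each subunit, 2.88% of all genes). RPL3, whose protein reaches the peptidyl transferase centre, gave 1.70, 3.21 and 3.91 (mean 2.94, adjusted p = 0.00950). RPS14A, from a protein of the small subunit platform, gave 1.45, 4.13 and 4.86 (mean 3.48, adjusted p = 0.0170). The highest mean, 4.40 for RPL9A (adjusted p = 0.0171), came from 7.22 and 1.58 only, with no value on array C. RPL10, whose product joins the large subunit late in its maturation, was called at 1.99, 2.38 and 3.87 (mean 2.75, adjusted p = 0.0283). The genes that fell were RPS30A, at −2.30, −0.78 and −3.02 (mean −2.03, adjusted p = 0.0412), and RPL13B, at −1.14, −1.36 and −0.87 (mean −1.12, adjusted p = 0.0369). The S. uvarum count was 37 in all, 20 without 28°C array B and 1 without 28°C array C (RPS17B, 2.40, adjusted p = 0.0499), the array with the highest members' median.

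At 12°C few members were called in S. uvarum and S. kudriavzevii, and 2 genes, RPL41A and RPS25B, were called in both. In S. uvarum 4 members were called higher (2.44% of all genes) and 0 lower (3.96%). They were RPL41A at 2.07, 3.58 and 3.74 (mean 3.13, adjusted p = 0.00836), RPL39 at 0.83, 3.78 and 2.89 (mean 2.50, adjusted p = 0.0237), RPS31 at 1.17, 3.66 and 1.92 (mean 2.25, adjusted p = 0.0351), and RPS25B (mean 1.22, adjusted p = 0.049). RPL41A encodes a very short basic peptide at the interface of the subunits, RPL39 a short protein of the exit tunnel, and RPS31 a small subunit protein made as a fusion with ubiquitin. The count was 0 without S. uvarum 12°C array B or C, 2 without Fermol cryophile 12°C array B and 7 without S. uvarum 28°C array A.

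In S. kudriavzevii at 12°C 8 members were called higher (13.7% of all genes) and 0 lower (9.74%), which is a smaller share than that of all genes in both directions. RPL41A gave 2.23, 1.68 and 3.88 (mean 2.60, adjusted p = 0.00671) and RPL13B 1.81, 1.32 and 1.06 (mean 1.40, adjusted p = 0.00870). RPS16A gave 3.23, 5.63 and 0.92 (mean 3.26, adjusted p = 0.00581) and RPL15B 5.38 and 1.02 (mean 3.20, adjusted p = 0.0260). The remaining calls were RPS20 (2.16), RPS25A (1.93), RPS25B (1.37) and RPS21A (1.36). Without S. kudriavzevii 12°C array B only RPL41A and RPL13B were called, and without S. uvarum 28°C array A 14 were. At 28°C in S. kudriavzevii 0 members were called (0.146% of all genes higher and 0% lower), and at an unadjusted p below 0.05 there were 8 higher and 1 lower (7.03% and 4.26% of all genes). The highest means there were 1.91 for RPL23A and 1.88 for RPS28B and the lowest −3.14 for RPL20B and −1.07 for RPS7B. RPL20B gave 0.69, −9.15 and −0.96 and RPS28B gave 1.15, 4.05 and 0.42, so array B stood apart in both.

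The subunits moved nearly together on each array. The large minus small subunit difference of the array medians lay between −0.246 and 0.321 on all 18 arrays. By group it was 0.05 ± 0.24 at 28°C and −0.11 ± 0.10 at 12°C in Fermol cryophile, 0.12 ± 0.14 and −0.14 ± 0.11 in S. uvarum, and 0.16 ± 0.18 and −0.03 ± 0.15 in S. kudriavzevii (28°C first, SD, n = 3 arrays each). The large subunit median was above that of the small subunit on 6 of 9 arrays at 28°C and on 1 of 9 at 12°C. These differences are small beside the spread of the genes within a subunit and were not tested.

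The comparison of 28°C with 12°C within a strain asks how far the difference from T73 itself changed with temperature. Since the reference at each temperature is T73 grown at that temperature, this difference holds the response of the strain and, with the opposite sign, that of T73, and the 2 cannot be told apart. In Fermol cryophile 56 of 135 members were higher at 28°C (41.5% of the members and 5.64% of all genes; 31 large and 25 small subunit genes) and 2 were lower (6.57% of all genes), with a members' median difference of 2.39 (quartiles 1.53 and 2.86), against 0.28 over all genes. The difference was above 0 for 122 members. In 87 of the 128 members with 3 values on each side, every 28°C array was above every 12°C array, which held for 30.6% of all genes, and 6 ran the other way (21.0%).

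That count rested on single arrays of a small design. It was 0 without Fermol cryophile 12°C array A, 28°C array A or 28°C array B, 4 without 12°C array B and 12 without 12°C array C. Without 28°C array C, the array with the small ratios, it was 88, with 86 higher, 2 lower and a median of 3.12.

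In S. uvarum the members' median difference was 0.81, against 0.13 over all genes, and 99 members were above 0, but 0 were called higher (2.00% of all genes) and 2 lower (0.863%), while 18 higher and 4 lower had an unadjusted p below 0.05 (14.0% and 8.88% of all genes). The 2 called were RPL13B (−2.07, SE 0.46, adjusted p = 0.0328) and RPS22B (−3.13, adjusted p = 0.0430), and this count ran from 0, without any of the 3 S. uvarum 12°C arrays, S. uvarum 28°C array C or Fermol cryophile 12°C array C, to 8 without S. uvarum 28°C array A. It was 4 without S. kudriavzevii 12°C array C. Every 28°C array was above every 12°C array for 28 of 132 members (14.5% of all genes) and below for 4 (8.71%). In S. kudriavzevii the median was 0.03, against −0.04 over all genes, with 71 members above 0 and 0 called (0.261% of all genes higher and 0.147% lower), and 3 higher and 11 lower had an unadjusted p below 0.05 (8.60% and 11.7% of all genes). Arrays did not overlap for 4 of 127 members with 28°C above and 11 with 28°C below (13.0% and 13.0% of all genes). Without S. kudriavzevii 12°C array C 4 members were called and without S. uvarum 28°C array A 1 was.

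**Figure D2:**
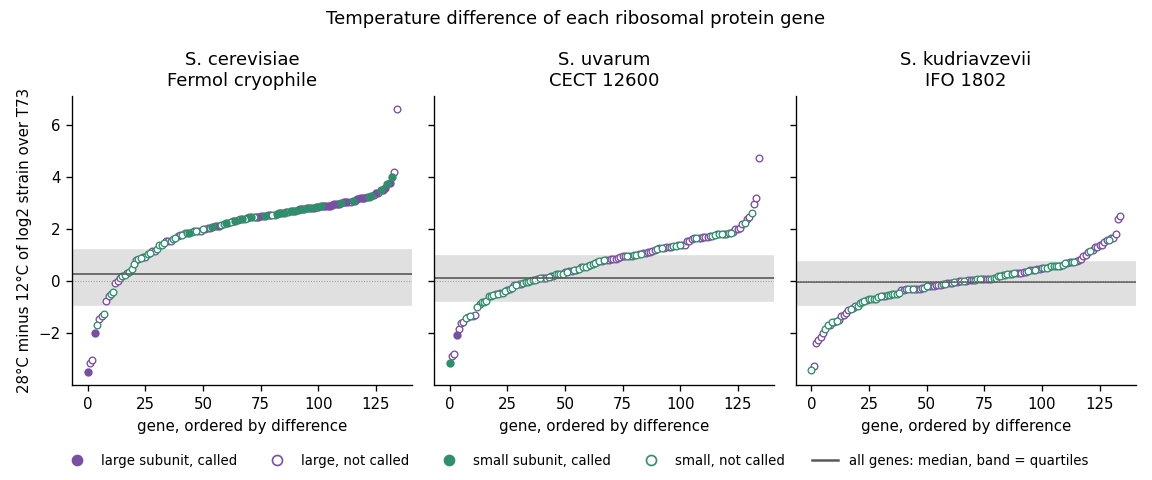
Difference of the log2 ratio at 28°C minus that at 12°C (y axis) for the 135 members, ordered from low to high in each of 3 panels for Fermol cryophile, S. uvarum and S. kudriavzevii, with large subunit genes in purple and small subunit genes in green, filled where called by limma, and a grey band for the quartiles and a line for the median of all genes. The members' medians are 2.39, 0.81 and 0.03, with 58, 2 and 0 members called.

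Averaged over the 3 strains, which takes 9 arrays against 9, 55 members were higher at 28°C (40.7% of the members and 19.8% of all genes) and 9 lower (16.4% of all genes). T73 is the reference of all 3 strains, so its own response to temperature stays in this average. The members' median was 1.10, against 0.14 over all genes, and 112 were above 0. By subunit the calls were 35 higher and 7 lower among the large and 20 higher and 2 lower among the small subunit genes, with medians of 1.16 and 0.87. In the single strains the large and small subunit medians were 2.47 and 2.22 in Fermol cryophile, 0.98 and 0.33 in S. uvarum, and 0.06 and −0.07 in S. kudriavzevii. The count of 64 ran from 42 without S. kudriavzevii 12°C array A to 84 without Fermol cryophile 28°C array C. With all 9 arrays on each side complete, 1 of 121 members did not overlap with 28°C above and 1 with 28°C below (1.92% and 1.68% of all genes), the last being RPL13B.

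Among core proteins of the large subunit, RPL3 and the RPL8 paralogs were called both in Fermol cryophile and over the 3 strains. RPL3 gave 3.01, 3.33 and −0.02 in Fermol cryophile at 28°C, against −1.75, −1.68 and −1.64 at 12°C (difference 3.80, SE 0.88, adjusted p = 0.0213). In S. uvarum it gave 1.70, 3.21 and 3.91 at 28°C, against −0.55, 0.76 and 1.18 at 12°C, and in S. kudriavzevii 0.25, −0.43 and 2.25 at 28°C, against −1.22, −0.20 and 0.42 at 12°C. The temperatures did not overlap in Fermol cryophile and S. uvarum and did in S. kudriavzevii, and the mean over strains was 2.43 (SE 0.51, adjusted p = 0.00226). RPL8A, a large subunit protein needed for rRNA processing, gave 2.96, 2.88 and 1.08 at 28°C in Fermol cryophile, against −0.61, −1.09 and −1.52 at 12°C (difference 3.38, SE 0.61, adjusted p = 0.0134). Its paralog RPL8B differed by 3.51 (adjusted p = 0.0134), and over all strains the copies differed by 1.83 (RPL8A, adjusted p = 0.00132) and 2.04 (RPL8B, adjusted p = 0.000940).

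Other single-copy proteins of the large subunit were less uniform. RPL30, whose product represses the splicing of its own transcript, was higher at 28°C in Fermol cryophile by 3.16 (adjusted p = 0.0492), and its mean over strains, 1.46, was not called. RPL25, at the rim of the exit tunnel, and RPL28, whose product lines the site where cycloheximide binds, differed by 2.51 (adjusted p = 0.165) and 3.23 (adjusted p = 0.102) in Fermol cryophile, neither called. RPL25 was called over the 3 strains (1.99, adjusted p = 0.0374), a call lost without any of 10 arrays, and RPL28 was not (1.73). RPL10 differed by 2.26 in Fermol cryophile (adjusted p = 0.148) and by 1.10 over the strains, with no call in either.

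Among small subunit genes RPS1A gave 2.70, 2.65 and 0.72 in Fermol cryophile at 28°C, against −1.98, −1.55 and −1.64 at 12°C (difference 3.74, adjusted p = 0.0165), with no overlap. RPS6B, from the protein phosphorylated downstream of TORC1, was higher at 28°C over the 3 strains by 2.26 (adjusted p = 0.00601). The paralogs of RPS14, whose protein holds back the splicing of RPS14B pre-mRNA, were split by the test: RPS14B differed by 2.10 in Fermol cryophile (adjusted p = 0.0288) and RPS14A by 2.55 (adjusted p = 0.188), and neither was called over the strains (0.59 for RPS14B and 1.80 for RPS14A).

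The stalk recruits the translational GTPases, with RPP0 as its base and the acidic proteins of RPP1A, RPP1B, RPP2A and RPP2B bound to it. Of these 5 genes 1, RPP0, was called in Fermol cryophile, at 2.42, 2.37 and −0.28 at 28°C, against −1.63, −1.55 and −0.84 at 12°C (difference 2.84, adjusted p = 0.0462). The other 4 differed by 3.07 (RPP1B, adjusted p = 0.0948), 2.46 (RPP1A, 0.133), 2.04 (RPP2A, 0.0530) and 1.92 (RPP2B, 0.121). Over the 3 strains RPP0 (1.56, adjusted p = 0.0256) and RPP1B (1.99, adjusted p = 0.0350) were called, while RPP1A (1.53), RPP2A (0.94) and RPP2B (0.91) were not. Both calls were near the threshold, RPP0 being lost without any of 6 arrays (adjusted p up to 0.0578) and RPP1B without any of 9 arrays (adjusted p up to 0.0752) and with a common spread. The ubiquitin fusion genes RPL40A and RPL40B, which supply a large subunit protein and free ubiquitin from 1 precursor, were higher at 28°C in Fermol cryophile by 2.99 (adjusted p = 0.0306) and 2.90 (adjusted p = 0.0451) and over the strains by 1.52 (adjusted p = 0.0198) and 2.11 (adjusted p = 0.00567). RPS31, the fusion gene of the small subunit, differed by 2.20 in Fermol cryophile (adjusted p = 0.0860) and by 0.75 over the strains and was called in neither.

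**Figure D3:**
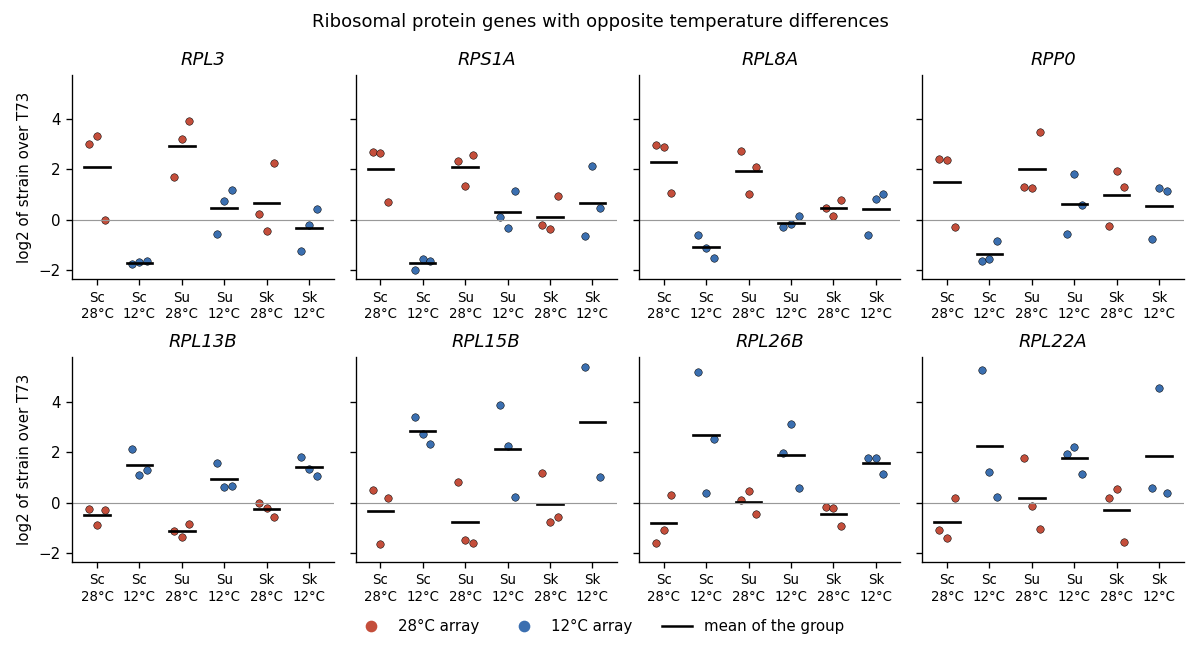
Log2 ratio over T73 (y axis) on each array for RPL3, RPS1A, RPL8A and RPP0 (top) and RPL13B, RPL15B, RPL26B and RPL22A (bottom) in the 6 groups (x axis, 28°C left of 12°C for each strain), with bars at the group means. The top genes have higher means at 28°C in Fermol cryophile and the bottom genes have lower ones, and RPL13B lies below 0 on all 9 arrays at 28°C and above 0 on all 9 at 12°C.

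A small set of members ran against the rest. All 9 that were called lower at 28°C over the strains were 1 copy of a pair, and 116 of the 135 members belong to pairs. RPL13B gave −0.26, −0.90 and −0.28 in Fermol cryophile at 28°C, against 2.12, 1.09 and 1.29 at 12°C. In S. uvarum it gave −1.14, −1.36 and −0.87 at 28°C, against 1.59, 0.62 and 0.65 at 12°C, and in S. kudriavzevii −0.01, −0.22 and −0.59 at 28°C, against 1.81, 1.32 and 1.06 at 12°C. No 28°C array reached a 12°C array in any strain, with the 9 values at 28°C between −1.36 and −0.01 and the 9 at 12°C between 0.62 and 2.12. The 3 strains share T73 as reference, so a response of T73 enters all of them alike and cannot be told apart from theirs. The differences were −1.98 in Fermol cryophile (SE 0.46, adjusted p = 0.0213), −2.07 in S. uvarum and −1.91 over the 3 strains (SE 0.26, adjusted p = 0.000293).

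RPL15B had the lowest called difference over the strains, −3.09 (SE 0.66, adjusted p = 0.00288). Its values in Fermol cryophile were 0.51, −1.66 and 0.20 at 28°C, against 3.39, 2.73 and 2.33 at 12°C. This strain's difference of −3.13 was not called (adjusted p = 0.0688). RPL26B, from a large subunit protein beside the exit tunnel, fell over the strains (−2.44, SE 0.53, adjusted p = 0.00271) and in Fermol cryophile (−3.49, SE 0.91, adjusted p = 0.0280). In that strain it gave −1.62, −1.07 and 0.29 at 28°C, against 5.17, 0.39 and 2.52 at 12°C, so the temperatures did not overlap, although the 12°C arrays ranged widely.

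RPL22A and RPL41A were also lower at 28°C over the strains, with differences of −2.23 (RPL22A, SE 0.70, adjusted p = 0.0214) and −1.64 (RPL41A, SE 0.47, adjusted p = 0.0143). RPL22A gave −1.10, −1.41 and 0.16 in Fermol cryophile at 28°C, against 5.24, 1.22 and 0.22 at 12°C, where array A stood far above the others, and its difference there, −3.01, was not called (adjusted p = 0.102). The other called members lower at 28°C were RPS16A (−1.55), RPS22B (−1.45), RPL33B (−1.35) and RPL20A (−1.31). At the opposite end RPL19B (2.53, SE 0.66, adjusted p = 0.00843), RPL41B (2.32, SE 0.40, adjusted p = 0.000736), RPL35A (2.28, adjusted p = 0.0149) and RPS6B joined RPL3 as the 5 highest called members.

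Setting each member's profile over the 18 arrays against the median of the other members gave a median r of 0.793. This is a description over arrays that share strains, temperatures and T73 as reference. It exceeded 0.8 for 64 genes and 0.5 for 101, with RPL1B the most typical at 0.95. For 15 genes it was below 0, lowest for RPL15B (−0.69), RPL13B (−0.68), RPL33B (−0.68), RPL26B (−0.60), RPL33A (−0.56) and RPL22A (−0.49). RPL20A (−0.44), RPS30A (−0.39) and RPS16A (−0.29) followed, and RPL43B, RPS22B, RPS19A, RPL34A, RPL34B and RPS21A lay between −0.22 and −0.04.

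Strains were next set against each other at 1 temperature, where each is a ratio to T73 at that temperature and no member was called by limma in any of the 6 comparisons. At 12°C S. uvarum minus Fermol cryophile had a members' median of 1.26, with 119 members above 0, 0 called (0.0162% of all genes) and 35 with an unadjusted p below 0.05, all higher in S. uvarum (5.05% of all genes were higher at that level). S. kudriavzevii minus Fermol cryophile had a median of 1.03, with 118 above 0, 0 called (0% of all genes) and 29 at the unadjusted level, all higher in S. kudriavzevii (4.72%). S. uvarum minus S. kudriavzevii had a median of 0.23, with 0 called (0%) and 2 higher and 1 lower unadjusted (3.28% and 4.04%). At 28°C S. uvarum minus Fermol cryophile had a median of −0.21, with 0 called (0%) and 1 higher and 5 lower unadjusted (4.91% and 3.49%). S. kudriavzevii minus Fermol cryophile had a median of −1.12, with 123 below 0, 0 called (0.0163%) and 29 lower unadjusted (4.07%). S. uvarum minus S. kudriavzevii had a median of 1.00, with 110 above 0, 0 called (0.146%) and 23 higher and 1 lower unadjusted (7.63% and 3.73%).

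Whether the temperature difference itself differed between strains was tested by a contrast of the strains' differences, and again 0 members were called, with 0% of all genes in each case. Fermol cryophile minus S. uvarum had a members' median of 1.38, with 125 above 0 and 21 higher at an unadjusted p below 0.05 (1.49% of all genes). Fermol cryophile minus S. kudriavzevii had a median of 2.18, with 125 above 0 and 56 higher (4.14%), and S. uvarum minus S. kudriavzevii a median of 0.74, with 103 above 0 and 5 higher (3.42%). The large number of calls in Fermol cryophile and their lack in S. kudriavzevii is therefore not shown to be a difference between the strains at the adjusted level.

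The A and B copies of a family usually ran closer than other members did. Over the 58 pairs the median r of copy A with copy B across the arrays was 0.667, against 0.504 for the 8987 other pairs of members, and the median of the mean absolute A minus B was 0.770 log2 units, against 1.06. A pair had r above 0.5 in 37 cases (63.8%, against 50.3% of other pairs) and a mean absolute difference under 1 in 39 (67.2%, against 43.6%). The ratio to T73 was on average higher for copy A in 30 families and for copy B in 28. Such ratios do not tell which copy of a pair gave more RNA. The median r was 0.602 over the 34 large subunit pairs and 0.704 over the 24 small subunit pairs. These are descriptions, since the pairs share arrays and close copies can share signal.

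**Figure D4:**
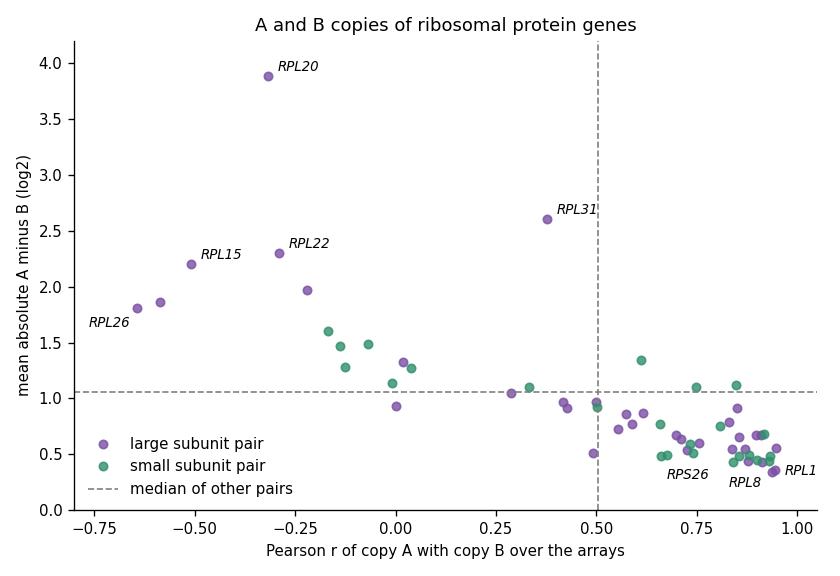
Correlation of copy A with copy B over the arrays (x axis) against the mean absolute A minus B in log2 units (y axis) for the 58 pairs, large subunit in purple and small in green, with dashed lines at the medians of all other member pairs (0.504 and 1.06). Most pairs sit to the lower right, and RPL20, RPL31, RPL22 and RPL15 stand highest.

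The closest pairs were RPL8 (mean absolute difference 0.34, r 0.94), RPL1 (0.36, r 0.94), RPS26 (0.43, r 0.84) and RPP2 (0.43, r 0.91). RPL1 forms the mobile L1 stalk by which spent tRNA leaves the ribosome. RPL1A gave 2.16, 2.38 and 0.04 in Fermol cryophile at 28°C, against −1.61, −1.41 and −1.12 at 12°C. RPL1B gave 2.16, 2.33 and −0.24 at 28°C, against −1.57, −1.62 and −1.25 at 12°C. The copies differed far less than the temperatures did, and the 28°C minus 12°C difference was called for both (2.91 and 2.90).

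The most distant pairs were RPL20 (mean absolute difference 3.88, r −0.32), RPL31 (2.60, r 0.38), RPL22 (2.30, r −0.29) and RPL15 (2.20, r −0.51). Extreme single values made up much of the first and the second. RPL20B gave −0.58, 1.10 and −1.19 in S. uvarum at 28°C, against −7.94, −8.64 and 1.63 at 12°C, and in Fermol cryophile 0.16 and 3.21 at 28°C, against −7.82, 2.85 and 2.53 at 12°C. In S. kudriavzevii it gave 0.69, −9.15 and −0.96 at 28°C, against −9.63, 1.15 and −1.23 at 12°C. The low values fell on 5 arrays, 4 at 12°C and 1 at 28°C, in all 3 strains, no group had them on all of its arrays, and RPL20B was called in no comparison.

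In RPL15, RPL22, RPL26, RPL13 and RPL41, among other pairs, the group mean of A minus B changed sign between the temperatures in each strain. A minus B of RPL15 was 1.87 ± 1.79 in Fermol cryophile at 28°C, against −4.01 ± 0.74 at 12°C (SD, n = 3 arrays each). For RPL26 it was 2.31 ± 2.05 at 28°C in this strain, against −3.31 ± 2.28 at 12°C. For RPL13 it was 1.76 ± 1.83 at 28°C, against −2.57 ± 0.50 at 12°C. RPL13 lay within its spread of 0 in S. uvarum at 12°C (−0.41 ± 1.28) and in S. kudriavzevii at 28°C (0.08 ± 1.10). RPL22 ran the other way, with −3.70 ± 3.08 at 28°C in Fermol cryophile, against 2.50 ± 0.78 at 12°C. So did RPL41, with −0.47 ± 0.38 (2 arrays) at 28°C in Fermol cryophile, against 1.38 ± 0.97 at 12°C. For RPL41 the values were −1.82 ± 0.61 against 2.99 ± 0.31 in S. uvarum and −0.97 ± 1.27 against 3.69 ± 1.01 in S. kudriavzevii. The most negative correlations between copies were those of RPL26 (−0.64), RPL13 (−0.59) and RPL15 (−0.51).

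**Figure D5:**
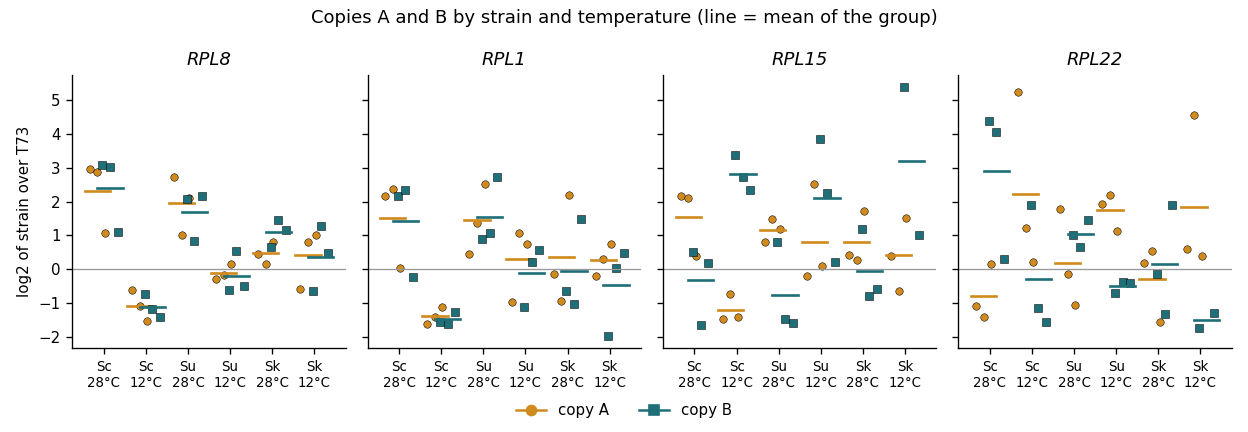
Log2 ratio over T73 (y axis) of copy A (orange circles) and copy B (teal squares) of RPL8, RPL1, RPL15 and RPL22 on each array of the 6 groups (x axis, 28°C left of 12°C). The copies of RPL8 and RPL1 lie together, with mean absolute differences of 0.34 and 0.36, and those of RPL15 and RPL22 lie apart, with 2.20 and 2.30.

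In the temperature comparison averaged over strains, both copies were called higher at 28°C in 14 families, 1 copy was called in 22, none in 18, and in 4 families the copies were called in opposite directions. These 4 were RPL15 (RPL15A 1.16, adjusted p = 0.0450, and RPL15B −3.09), RPL22 (RPL22A −2.23 and RPL22B 2.13, adjusted p = 0.0173), RPL26 (RPL26A 1.11, adjusted p = 0.0202, and RPL26B −2.44) and RPL41 (RPL41A −1.64 and RPL41B 2.32). All 4 belong to the large subunit, as do 34 of the 58 pairs. Over all genes 19.8% were called higher and 16.4% lower in this comparison. Whether 4 of 58 pairs exceeds what these shares would give was not tested. The opposite calls of RPL15 rest on RPL15A, whose call was lost without any of 13 of the 18 arrays, with arrays centred on their medians and with the replicate letter as a block (adjusted p up to 0.0955 with an array left out), while those of RPL26 held with each of the 18 arrays left out. Those of RPL22 were not kept without S. kudriavzevii 12°C array A or C, where RPL22B then had too few values to be tested. Those of RPL41 were not kept without Fermol cryophile 28°C array B or C, for the same reason in RPL41A. With at least 3 values required per group, RPL15B, RPL22B and RPL41A were not tested and only RPL26 kept opposite calls. RPL13A was not called (1.26, adjusted p = 0.0984) beside RPL13B at −1.91. In Fermol cryophile both copies were called higher in 15 families and 1 family, RPL26, had opposite calls. There 5.64% of all genes were called higher and 6.57% lower.

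In the deposited values the distance between copies had its lowest group mean in Fermol cryophile at 28°C, where array C had the narrowest spread over all genes. The arrays of this strain gave 0.4565, 0.335 and 0.2525 at 28°C and 0.783, 0.307 and 0.446 at 12°C, so the temperatures overlapped. The value at 28°C rose after scaling to a common spread and after quantile normalisation. The median over pairs of the absolute A minus B on an array, averaged over the 3 arrays of a group, was 0.35 in this group and 0.51 at 12°C, 0.93 and 0.68 in S. uvarum, and 0.68 and 0.70 in S. kudriavzevii, with 28°C first. Members that lie next to each other on a chromosome were not uniformly alike. RPL13A and RPP1A on chromosome IV had r 0.931, RPS9B and RPL21A on chromosome II 0.910, and RPL24A and RPL30 on chromosome VII 0.864. RPL13B and RPS16A on chromosome XIII, both against the common trend, had a lower r of 0.543.

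Other gene lists put the members in context. In the comparison of 28°C with 12°C averaged over strains, 14 of 62 tested mitochondrial ribosomal protein genes were higher and 8 lower (median 0.31), 6 of 25 regulators of the ribosomal protein genes were higher and 2 lower (median 0.35), and 6 of 23 ribosome-associated proteins and dedicated chaperones were higher and 0 lower (median 0.56). A list of 30 stress genes had 9 higher and 5 lower (median 0.62), beside the members' median of 1.10. Over all genes 19.8% were higher and 16.4% lower (median 0.14), so the shares of the mitochondrial genes (22.6% higher) and of the regulators (24.0% higher) lay near that of all genes. In Fermol cryophile alone 0 mitochondrial ribosomal protein genes were higher and 3 lower (median 0.42), where 5.64% of all genes were higher and 6.57% lower. There the calls outside the members included STM1, which binds ribosomes at rest (2.92), ASC1, a WD-repeat protein of the small subunit head (2.22), SSB2, a chaperone of nascent chains (1.88), and RRP7, an assembly factor of the small subunit that also joins a complex with Ifh1 (4.44, adjusted p = 0.0197). These genes were picked from their lists, so they do not show how the lists as a whole ran in this strain. RPP1, the RNase P subunit that shares the naming pattern, was higher at 28°C over the strains by 1.21 (SE 0.39, adjusted p = 0.0244).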

How the data were processed

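RNA from must fermentations by the 3 strains and by Lalvin T73 was hybridised in pairs to glass arrays of PCR products of S. cerevisiae ORFs. The authors scanned them with an Axon GenePix scanner and GenePix Pro, subtracted a global background, normalised in Acuity, removed spots that were not found and corrected print-tip effects, and deposited log2 ratios per ORF. Scanner intensities were not used here, so precision is set by how many arrays there are.

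The deposited log2 ratios were taken as Cy5 over Cy3 and turned to strain over T73. Of 6180 lines, 2 control spots were left out and repeated lines of an ORF averaged. ORFs were named through an annotation of the S288c genome. Groups came from the sample titles. In limma 3.58.1 (R 4.3.3) 1 coefficient was fitted for each of the 6 groups over 18 arrays, for genes with at least 2 values per group, with Benjamini-Hochberg adjustment over all genes. The fit was tested on simulated data. The study mentions 2 independent fermentations and 3 experiments, so arrays may share a fermentation and p-values may then be too small.

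Members named in the text were the highest and lowest called per comparison, the closest and most distant pairs, the stalk and ubiquitin fusion genes, and RPL3, RPL10, RPL25, RPL28, RPL30, RPL22A, RPL22B, RPS14A and RPS14B; others were named after their values were seen, and some members are not reported here. Members, lists and rules were chosen with earlier results of these data known. Alternatives were centring on array medians, a common spread, quantile normalisation, array weights and values beyond 10 in either direction set to missing. Others were a replicate block, at least 3 values per group, groups compared alone, other fold rules and leaving out each array.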

Additional observations from a re-analysis of the deposited data

Results flagged for a closer look

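Each difference in this section compares 28°C with 12°C within 1 strain. The single genes drew attention because their ratio to T73 differed between the temperatures by limma, and only genes named by the rule are given. In Fermol cryophile the large subunit genes among them that were higher at 28°C were RPL3 (3.80, adjusted p = 0.0213), RPL8B (3.51), RPL8A (3.38), RPL30 (3.16), RPL40A (2.99), RPL1A (2.91), RPL1B (2.90), RPL40B (2.90), RPP0 (2.84), RPL15A (2.75) and RPL41B (2.54). Those of the small subunit were RPS1A (3.74, adjusted p = 0.0165), RPS6B (3.50), RPS7B (2.64) and RPS14B (2.10). The calls that were lower at 28°C were RPL26B (−3.49, adjusted p = 0.0280) and RPL13B (−1.98, adjusted p = 0.0213). These genes are part of the 58 members called, and all those given here were lost without at least 1 array, with a highest adjusted p between 0.128 and 0.207.

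In S. uvarum RPL13B was lower at 28°C (−2.07, adjusted p = 0.0328, and 0.115 without 1 array). The members' median in Fermol cryophile, 1.46 at 28°C and −0.81 at 12°C, differed by 2.27, with all 3 arrays above 0 at 28°C and all 3 below 0 at 12°C, and this difference of medians was not tested.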

How the results depend on the processing

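With array weights the count at 12°C was 94 for Fermol cryophile, 9 for S. uvarum and 9 for S. kudriavzevii, 107, 14 and 7 at 28°C, and 114, 1 and 2 for 28°C minus 12°C, and it was 8 for S. uvarum minus Fermol cryophile at 12°C, 70 for S. kudriavzevii minus Fermol cryophile and 1 for S. uvarum minus S. kudriavzevii at 28°C. The temperature difference of Fermol cryophile minus S. kudriavzevii then had 3. Scaled to a common spread the count was 9 in Fermol cryophile at 12°C, 43, 13 and 4 in the 3 strains at 28°C, 1 in S. uvarum for 28°C minus 12°C and 3 for S. kudriavzevii minus Fermol cryophile at 28°C. With quantile normalisation it was at 12°C 11 for Fermol cryophile and 5 for S. kudriavzevii, at 28°C 46, 18 and 4 for the strains, 3 for S. kudriavzevii minus Fermol cryophile at 28°C and 1 for the temperature difference of Fermol cryophile minus S. kudriavzevii. With groups compared alone the strains had 54, 0 and 0 at 12°C and S. uvarum 0 at 28°C and for its temperatures.

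Leaving out 1 array at a time gave 0 to 10, 0 to 7 and 2 to 14 calls in the strains at 12°C, 0 to 44 in Fermol cryophile and 1 to 42 in S. uvarum at 28°C, 0 to 88, 0 to 8 and 0 to 4 for 28°C minus 12°C, and 42 to 84 averaged over strains. The 2-fold counts then ran, for higher and lower, at 12°C from 17 to 46 and 3 to 4 for S. uvarum and from 20 to 42 and 5 to 23 for S. kudriavzevii, and at 28°C from 0 to 3 lower in Fermol cryophile and from 15 to 22 and 1 to 6 in S. kudriavzevii. At 3-fold, higher and lower were 3 and 11 in Fermol cryophile and 7 and 2 in S. kudriavzevii at 12°C, 37 and 1 for S. uvarum and 1 and 0 for S. kudriavzevii at 28°C, with 11 higher in S. uvarum at 12°C and 0 lower in Fermol cryophile at 28°C. From means in place of medians, lower were 7 in S. kudriavzevii at 12°C, 1 in Fermol cryophile and 3 in S. kudriavzevii at 28°C. The median distance of paralogs was 0.53 in S. kudriavzevii at 12°C, 0.46 in Fermol cryophile and 0.84 in S. kudriavzevii at 28°C after scaling, and 0.49 and 0.88 in these 2 groups at 28°C after quantile normalisation.

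Deviations from the group means correlated weakly between arrays of the same letter and temperature (r between −0.346 and 0.384, median 0.026). Of these 18 pairs 5 had r over 0.1. With 3 arrays per group this cannot tell whether arrays of a letter share a fermentation or T73 RNA. With a replicate block the count was 47 for Fermol cryophile at 28°C minus 12°C, of which 44 were among the 58, 61 averaged over strains, of which 60 were among the 64, 26 in S. uvarum at 28°C and 1 for S. uvarum at 28°C minus 12°C. The causes were not tested. Centring arrays on their medians left 3 calls in Fermol cryophile at 12°C. Of 77 calls of named genes 20 held with every array left out, and 0 changed sign under any alternative. A comparison of pairs with unequal proteins was not run.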
